A study of Mus musculus with 18 samples.

Results

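The primary cilium genes described here are 38 mouse genes chosen by name for their place in the cilium: 11 subunits of the transport complex IFT-B, 3 of IFT-A, 10 genes of the BBSome with its chaperonins and GTPase, 3 motor genes with the kinesin-like regulator Kif7, 5 regulators of the ciliary membrane and of hedgehog signalling, and 5 genes of the distal appendage and transition zone. All 38 were found among the 55183 genes of the cell table and the 19464 genes of the brain table. All 38 passed the filter on low values in cells (at least 1 FPKM in at least 3 libraries, FPKM being fragments per kilobase of gene scaled by library depth), and 37 passed it in brain, where Kif7 did not.

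The primary cilium is a single, non-motile extension of the plasma membrane, built on the mother centriole of cells that are not dividing and taken down before mitosis. IFT-B with kinesin-2 carries cargo to the tip, IFT-A with dynein-2 carries it back, the BBSome moves membrane proteins out, and the transition zone is the gate at the base. In vertebrates the hedgehog pathway runs through this organelle: Ptch1 and Smo signal there, Gli proteins are processed there, and granule neuron precursors of the cerebellum, from which SHH medulloblastoma can arise, need a cilium to respond to the Sonic hedgehog ligand.

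Transcripts were sequenced from PTCP53 304 cells, a mouse SHH medulloblastoma line whose label gives the genotype Ptch1+/-; Trp53-/-, a genotype that vehicle and treated cells share. Cells received vehicle or CT-179, which the labels describe as OLIG2 inhibition (OLIG2 is a transcription factor of neural progenitors), and were collected after 24 h, on culture day 1, or after 144 h, on culture day 6. Whole brains came from mice labelled Ptch1+/-; IR (the meaning of IR is not given) that were dosed with vehicle or CT-179 from postnatal day 3 and killed at postnatal day 15, after 12 days. Each of the 6 groups held 3 libraries, and the cells are 1 line. Whether libraries of a group came from separate cultures or animals is not stated, so a p-value refers to library-to-library spread, which may be technical. Groups of brains follow the treatment label. It conflicts with the sample titles, where "vehicle" appears for treated brains too, so a crossed label would turn every brain direction around.

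The depth implied by the values was 2.95e+07 to 7.11e+07 reads in the cell libraries and 1.78e+07 to 6.35e+07 in those of brain. The member with the fewest implied reads was Bbs12, with 43 in brain vehicle replicate 2, the shallowest library, which also had 12.50% of its reads in Lars2 and Gm15564. One cell library, CT-179 at 144 h replicate 2, stood apart, with a correlation of 0.941 and 0.943 to its group, where the other cell libraries reached 0.996 or more with at least 1 library of their group. Of the markers that define granule precursors, Atoh1 and Barhl1 were at or near 0 in every cell library and Sfrp1 stayed below 0.4 FPKM. Gli1 and Zic1 were expressed, and Mycn rose with culture time in vehicle (log2 fold change 1.56). Of the 10 markers of this list, 6 had a mean under 1 FPKM in vehicle at 24 h and 3 at 144 h. Olig2 stood at 180 to 411 FPKM. Microglial markers summed to at most 0.0848 FPKM and choroid plexus markers to at most 0.901 FPKM in cells.

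In the library that stood apart, 28 of the 38 cilium genes were below the mean of the other CT-179 libraries at 144 h and 10 were above it. Ift27 was at 1.99 times that mean and Ift20 at 1.90 times, while Dync2h1 was at 0.247 times. These ratios followed exonic length: Spearman's rho was -0.74 across the 38 genes, which share 1 library and are not independent replicates. The shortest is Ift20, with 1525 bases of exon, and the longest Dync2h1, with 16348. CT-179 calls in cells are therefore given with and without this library.

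Culture time gave the largest changes among the cilium genes. From 24 h to 144 h in vehicle, 18 of 38 rose and 5 fell, with 15 not passing the test. The strongest rises were in Kif3a, the kinesin-2 motor subunit, Tctn1, a transition zone protein, and Bbs1, a BBSome subunit. The falls were in Cep164, Evc2, Bbs12, Bbs7 and Tulp3. Changes were also common across all genes: 66.5% of the 12510 tested genes changed, 34.1% upward and 32.4% downward, so the members' share of 60.5% was no higher than the background, and the members' median log2 fold change was 0.24 against 0.01 for all genes. Of the members 47.4% rose and 13.2% fell. Without the library that stood apart, which is in neither vehicle group but widens the shared spread, 22 members rose and 10 fell. The shares of all genes risen and fallen in that setting are not given here, so this split is not a result about the members. At an unadjusted p under 0.05 in limma, in either direction, there were then 10984 of 12459 genes and 33 of 38 members. With all libraries kept and each rescaled to a common FPKM sum, the split was 17 risen to 2 fallen. That scaling also raised the median change of all genes. Their shares risen and fallen under it are not given here, so this split too is not a result about the members. In bulk RNA, fewer cells of a type and less RNA per cell cannot be told apart.

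**Figure D1:**
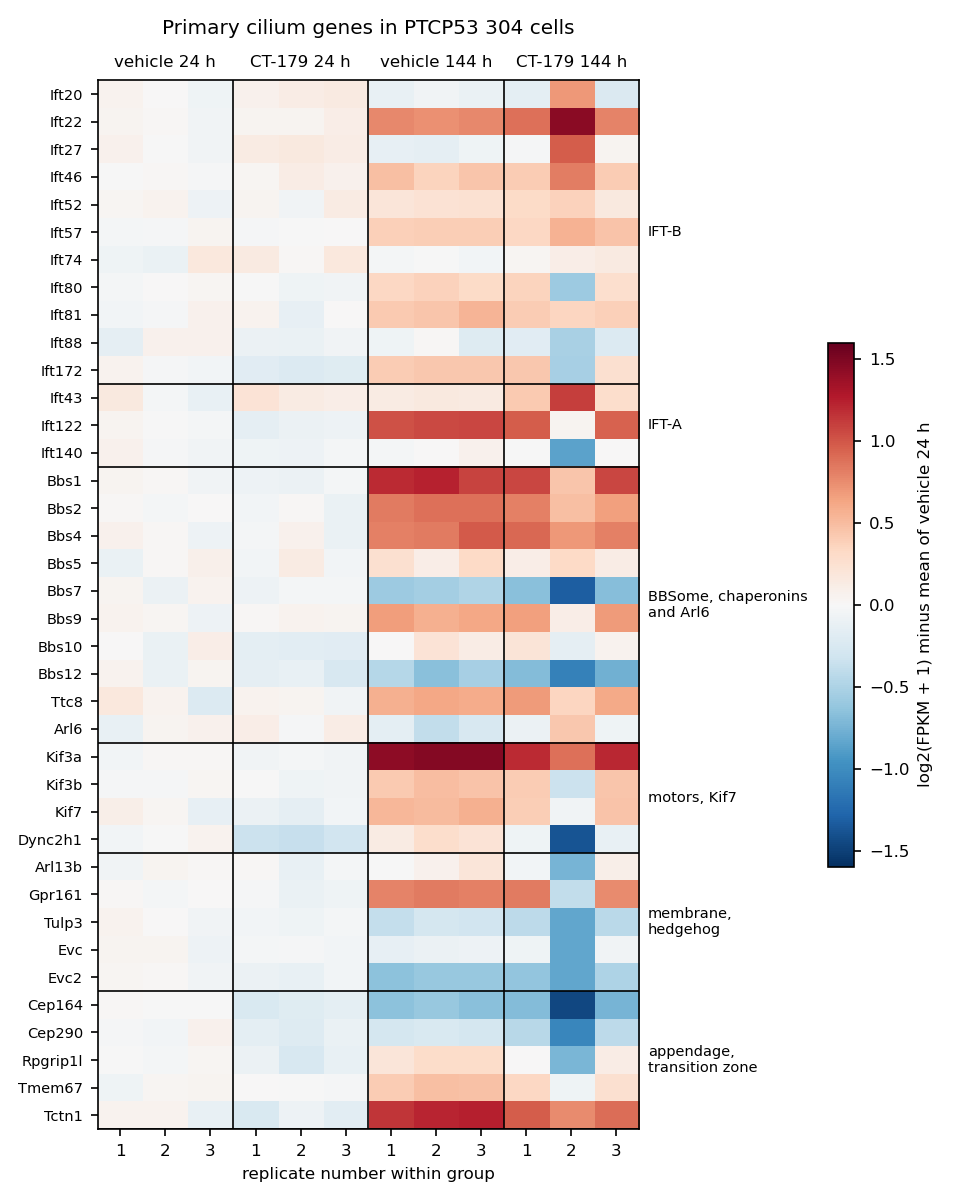
Each row is 1 of the 38 cilium genes and each column 1 of the 12 cell libraries. Colour gives log2(FPKM + 1) minus the mean of the 3 vehicle libraries at 24 h, from blue (lower) to red (higher). The step between the 24 h and 144 h columns is visible in rows such as Kif3a, Tctn1 and Bbs1, and replicate 2 of CT-179 at 144 h differs from the columns beside it.

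Among the motors, Kif3a (chr11:53567379-53601967, mm10) stood at 10.3, 10.9 and 10.9 FPKM in the vehicle libraries at 24 h. At 144 h it stood at 30.7, 31.5 and 31.4 FPKM. The groups did not overlap, and Kif3a went from a mean FPKM below that of Tulp3, Ift20, Ift27 and Evc2 to the highest of all members. The log2 fold change was 1.46 (SE 0.08, adjusted p = 5.6e-08). Its partner Kif3b rose by less, with a log2 fold change of 0.46 (SE 0.17, adjusted p = 0.032). Dync2h1, the heavy chain of the retrograde dynein, had 3.74, 3.87 and 4.09 FPKM at 24 h and 4.38, 4.96 and 4.71 at 144 h, without passing the test (log2 fold change 0.21, adjusted p = 0.52). Without the library that stood apart, which belongs to neither group of this comparison but enters the shared estimate of spread, the adjusted p for Dync2h1 was 0.001.

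Kif7, which acts at the ciliary tip to organise Gli regulation, was at 7.03, 6.73 and 5.90 FPKM at 24 h and 9.93, 9.66 and 10.2 at 144 h. It rose by 0.53 on the log2 scale (SE 0.12, adjusted p = 0.0025). Of the 4 genes of this group, 3 rose.

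The transition zone and appendage genes moved in both directions. Tctn1 (chr5:122237848-122264460), a tectonic needed at the ciliary gate, had 2.04, 2.05 and 1.7 FPKM at 24 h and 5.48, 5.82 and 5.92 at 144 h. All 144 h values exceeded all 24 h values, and the log2 fold change was 1.20 (SE 0.08, adjusted p = 2.0e-07). Tmem67, a receptor-like transition zone protein, rose by 0.45 (SE 0.09, adjusted p = 0.0015). Cep164, which marks the distal appendages on which a cilium docks, went the other way, from a mean of 5.38 ± 0.0724 FPKM (SD, n = 3) to 3.10 ± 0.0909 (SD, n = 3), a log2 fold change of -0.64 (adjusted p = 0.005). Cep290 (-0.27) and Rpgrip1l (0.26) did not pass.

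In the BBSome group, 6 of 10 rose and 2 fell. Bbs1 was at 2.14, 2.08 and 1.94 FPKM at 24 h and 5.96, 6.14 and 5.43 at 144 h, a log2 fold change of 1.16 (SE 0.14, adjusted p = 3.4e-05). Bbs2 was at 5.14, 4.93 and 5.10 FPKM at 24 h and 9.77, 10.2 and 10.2 at 144 h, a change of 0.87 (SE 0.08, adjusted p = 3.1e-06). Bbs4 was at 1.69, 1.61 and 1.43 FPKM at 24 h and 3.49, 3.56 and 4.09 at 144 h, also a change of 0.87 (SE 0.08, adjusted p = 4.6e-06). For these 3 subunits the libraries of the 2 times did not overlap. Bbs9, Ttc8 and Bbs5 rose by 0.62, 0.59 and 0.23. Bbs7, which lies in the same complex, fell by 0.54, and Bbs12, a chaperonin-like assembly factor rather than a subunit, fell by 0.55. Bbs10 (0.11), the other chaperonin-like factor, and the GTPase Arl6 (-0.27) did not pass.

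With all libraries, 5 of the 11 IFT-B genes rose and none fell. The 5 were Ift22 (log2 fold change 0.76), Ift81 (0.47), Ift46 (0.43), Ift57 (0.39) and Ift52 (0.22). Without the library that stood apart, Ift80 (0.34, adjusted p = 1.6e-06) and Ift172 (0.43, adjusted p = 1.9e-06) also rose. In that setting Ift20 (-0.09, adjusted p = 0.029) and Ift27 (-0.11, adjusted p = 0.01) fell. Ift81 is one of the tubulin-binding subunits, and its partner Ift74 did not pass (-0.03). Ift88, the IFT-B subunit whose loss is a common way to remove cilia in mice, was among the lowest members, at 1.68, 2.09 and 2.10 FPKM at 24 h and 1.81, 1.99 and 1.56 at 144 h. Its groups overlapped and it did not pass (-0.09, SE 0.10, adjusted p = 0.48). Among the IFT-A genes Ift122 rose from 6.83 ± 0.218 to 15.2 ± 0.328 FPKM (SD, n = 3 each), a change of 1.05 (adjusted p = 7.3e-04), and Ift43 (0.14) and Ift140 (0.02) did not pass.

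The membrane and hedgehog regulators were the role in which fewer genes rose than fell, 1 against 2 of 5. Gpr161, a ciliary receptor that restrains hedgehog signalling, had 8.10, 7.73 and 8.02 FPKM at 24 h and 14.5, 15.0 and 14.7 at 144 h, and rose by 0.81 (SE 0.25, adjusted p = 0.015). Tulp3, the adaptor that brings Gpr161 into the cilium, fell by 0.32 (adjusted p = 0.014). The groups did not overlap for either gene, and the receptor and its carrier moved in opposite directions.

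Evc and Evc2 form 1 complex at the ciliary base that relays the Smo signal, and lie beside each other on chromosome 5 (chr5:37289098-37336894 and chr5:37338499-37425055), read from opposite strands. Evc2 had 16.1, 16 and 15.1 FPKM at 24 h and 9.61, 10 and 10 at 144 h, with every library lower at 144 h (log2 fold change -0.62, SE 0.08, adjusted p = 4.6e-05). Evc had 12.0, 12.0 and 11.1 FPKM at 24 h and 10.6, 10.9 and 11 at 144 h, also with every library lower at 144 h. It did not pass with all libraries (-0.10, SE 0.17, adjusted p = 0.61). Without the library that stood apart it passed (-0.10, SE 0.03, adjusted p = 0.014). The difference between the neighbours was not tested. Arl13b, a GTPase of the ciliary membrane, had 4.47, 4.88 and 4.78 FPKM at 24 h and 4.66, 5.01 and 5.53 at 144 h, with overlapping groups (0.09, SE 0.18, adjusted p = 0.69).

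**Figure D2:**
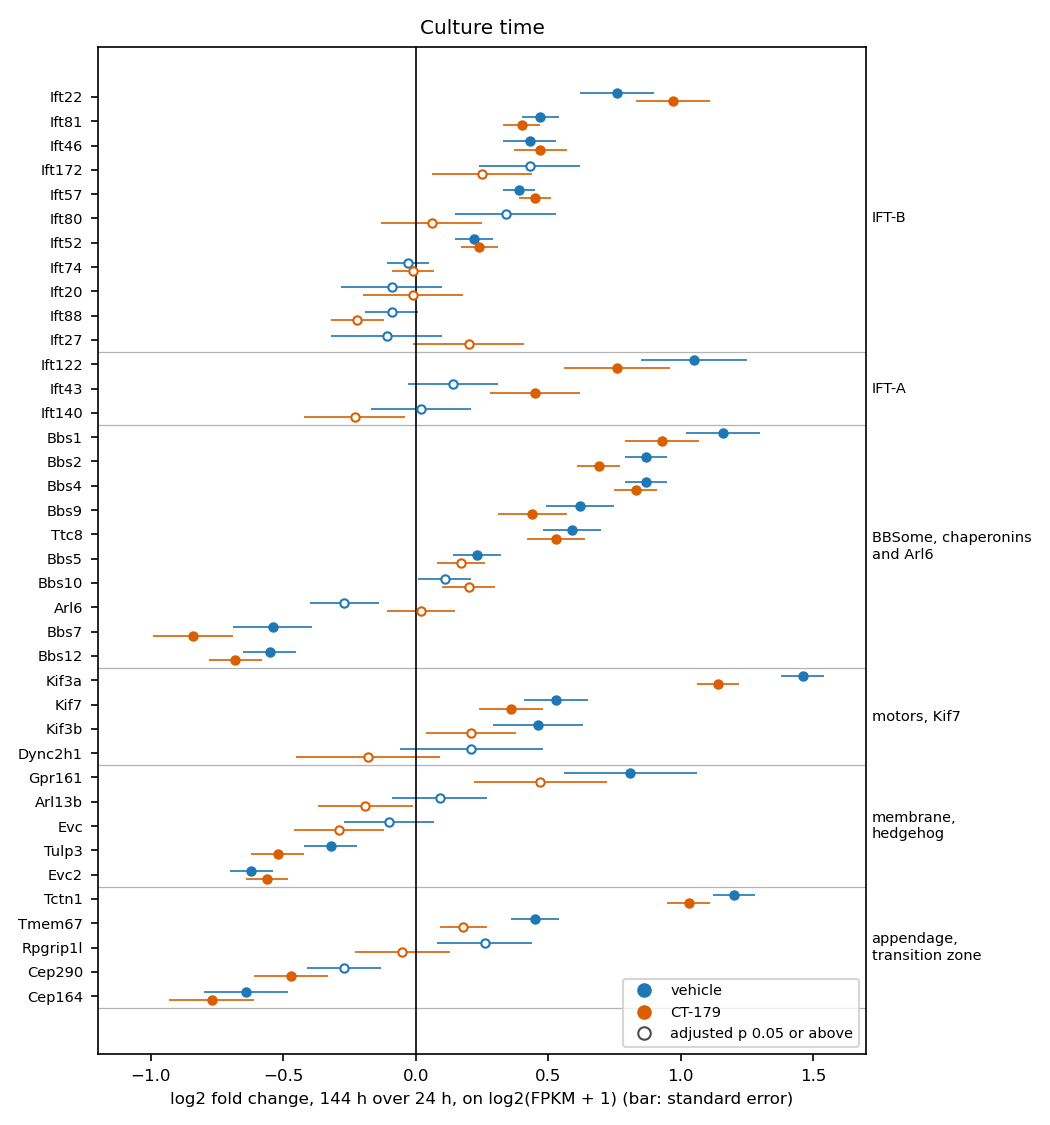
Log2 fold change from 24 h to 144 h on log2(FPKM + 1) for each cilium gene, by role, in vehicle (blue) and under CT-179 (orange). Bars are standard errors and open symbols did not pass an adjusted p of 0.05. Kif3a, Tctn1 and Bbs1 lie farthest to the right in vehicle, and Cep164, Evc2, Bbs12 and Bbs7 farthest to the left.

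Under CT-179 the same comparison, on libraries not shared with the vehicle one, called 15 members higher and 6 lower, against 65.3% of all genes called (33.2% higher and 32.1% lower). Of the 18 risen in vehicle, 14 also rose under CT-179 (77.8% of the vehicle list and 93.3% of the CT-179 list), and the 5 that fell in vehicle also fell, joined by Cep290. The same overlap was not counted over all genes, so it is not a result about the members. Kif3a rose by 1.14 (SE 0.08, adjusted p = 4.1e-07), Tctn1 by 1.03 (adjusted p = 7.3e-07), Bbs4 by 0.83 and Bbs2 by 0.69. Ift57, an IFT-B subunit that links the train to the motor, had 9.54, 9.62 and 9.80 FPKM at 24 h under CT-179 and 12.5, 14.7 and 13.7 at 144 h, a change of 0.45 (adjusted p = 6.8e-05). Evc2 fell by 0.56 (adjusted p = 1.0e-04). Without the library that stood apart, 23 rose and 8 fell, against 85.6% of all genes called (43.9% higher and 41.7% lower).

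Genes outside the 38 that act in the same organelle also changed with time in vehicle, where 34.1% of all genes rose and 32.4% fell. On lists this small, shares near these are not a result about the list. In other ciliary transport 6 of 14 tested genes rose and 2 fell, with Ttc30b at a log2 fold change of 1.21 and the dynein-2 light intermediate chain Dync2li1 at 1.39. In other BBSome and trafficking genes 8 of 16 rose and 4 fell, among them Tub, the Tulp3 relative, at 1.44. In the rest of the transition zone 8 of 20 rose and 2 fell, led by Tctn2 at 1.5, a second tectonic beside Tctn1. The basal body and appendage list went the other way by count, with 1 of 17 risen and 7 fallen. The 1 risen, Dzip1, had the larger change, 1.38, against -0.64 for Cep89 and -0.68 for Sclt1. The falls have the direction of the distal appendage gene Cep164. Of 8 genes that take the cilium down, 2 rose and 5 fell, including Aurka at -3.34, the kinase that starts disassembly, and Nek2 at -2.42. Among transcription factors of ciliary genes, Rfx2 (0.83), Rfx3 (1.14), Rfx4 (0.69) and Foxj1 (1.85) rose, and Myb (-1.46) and Rfx1 (-0.26) fell.

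Other cell states moved over the same interval. The 6 cycling markers summed to 441 to 456 FPKM in vehicle at 24 h and to 30.4 to 33.1 at 144 h, and all 6 fell. All 5 astrocyte markers rose and their sum went from between 457 and 488 to between 1045 and 1065 FPKM. The hedgehog target Gli1 rose from 2.34, 2.6 and 2.40 to 19.4, 20.6 and 21.1 FPKM (log2 fold change 2.63, adjusted p = 1.2e-09), and Ptch1 and Hhip rose by 2.46 and 1.32. The part of these changes in the cilium result was not tested. Markers of multiciliated ependyma, whose motile cilia share the IFT genes, summed to 2.43 to 2.91 FPKM at 24 h and 10.4 to 10.6 at 144 h, most of it Foxj1, and 12 of the 14 had a mean under 1 FPKM at 144 h.

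Because 18 members and 3 RFX factors rose over the same interval, the promoters were read for 1 arm of the X-box, the motif to which RFX factors bind: GTTGCC, or GGCAAC on the other strand, in the 250 bases before and 50 after the RefSeq start (GRCm38.p6). Of 36 windows matched to 34 members, 14 held the motif (38.9%), against 12.5% of all 32851 windows. A pair of exactly these arms, GTTGCC and then GGCAAC at most 3 bases apart, stood only in the Tctn1 window among members, and in 0.161% of all windows. Other spellings of the arms were not searched for, so pairs that hold them are not counted. No window was given for Ift80, Ift81, Ift122 and Tmem67. The stretch of 250 bases before the start of Kif3a (chr11:53567119-53567368, + strand) is shown first because Kif3a rose most, followed by 30-base sites for Tctn1, Bbs7, Arl13b and Evc as examples of genes that rose, fell or did not pass. Capitals mark the motif.
Kif3a (chr11:53567119-53567368, + strand): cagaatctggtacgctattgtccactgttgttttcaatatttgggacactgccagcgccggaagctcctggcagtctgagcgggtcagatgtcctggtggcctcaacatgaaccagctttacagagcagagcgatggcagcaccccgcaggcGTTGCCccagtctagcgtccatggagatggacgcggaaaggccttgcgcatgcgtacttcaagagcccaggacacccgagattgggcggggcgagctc
Tctn1 (chr5:122264411-122264440, - strand): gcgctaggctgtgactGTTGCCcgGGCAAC
Bbs7 (chr3:36613493-36613522, - strand): gaatgcgccccgGTTGCCttggaaaccggc
Arl13b (chr16:62847204-62847233, - strand): acagacgctccaGTTGCCtagttaccagag
Evc (chr5:37337047-37337076, - strand): ctcaggactcagGGCAACctgaacgctcag
The Kif3a motif begins 98 bases before the start, that of Bbs7 121, Arl13b 181 and Evc 183 bases before it, and the Tctn1 pair begins 36 bases after it, with 2 bases between its arms. Of the 14 members with the motif, 5 rose and 2 fell with time in vehicle (median log2 fold change 0.15), and of the 20 without it, 10 rose and 3 fell (median 0.24). Under CT-179 at 144 h, described further on, 2 of the 14 with it were called lower, Kif3a and Tctn1, and 0 of the 20 without it. The share called lower among all genes with the motif was not counted, so these 2 genes do not tie the motif to CT-179. A match is a run of letters, not evidence of binding.

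At 24 h of CT-179 no cilium gene passed the test, and their log2 fold changes over vehicle ran from -0.34 (Dync2h1) to 0.15 (Ift43) with a median of -0.04. Over all genes 33 passed (0.264%, all lower), and at an unadjusted p under 0.05 there were 640 genes and 0 members. The members nearest to passing were Tctn1, Bbs10 and Bbs12. Tctn1 was at 1.48, 1.77 and 1.61 FPKM under CT-179 against 2.04, 2.05 and 1.7 in vehicle, which overlap (-0.16, SE 0.08, adjusted p = 1). Bbs10 was at 1.82, 1.79 and 1.77 FPKM against 2.14, 1.91 and 2.36, without overlap (-0.16, adjusted p = 1). Bbs12 was at 3.25, 3.31 and 2.91 FPKM against 3.85, 3.35 and 3.84, also without overlap (-0.17, adjusted p = 1).

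Without the library that stood apart, which is not a 24 h library but widens the shared spread, 7 members passed at 24 h and 22.2% of all genes (8.08% higher and 14.1% lower). The 2 higher were the short IFT-B genes Ift20 (0.11, adjusted p = 0.044) and Ift27 (0.13, adjusted p = 0.021). The 5 lower were Dync2h1 (-0.34, adjusted p = 8.9e-04), Cep164 (-0.20), Ift172 (-0.20), Cep290 (-0.16) and Ift122 (-0.11). Dync2h1, described here because its value was seen to be the lowest, had 2.86, 2.79 and 2.97 FPKM under CT-179 against 3.74, 3.87 and 4.09 in vehicle. The members' share of 18.4% was below the background.

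At 144 h, Kif3a and Tctn1 were lower under CT-179 and no member was higher. They are also the members with the largest rise with culture time, a comparison that shares the vehicle libraries at 144 h with this one. Kif3a was at 25.8, 20.7 and 26.1 FPKM under CT-179 against 30.7, 31.5 and 31.4 in vehicle, with no overlap (-0.36, SE 0.08, adjusted p = 0.038). Tctn1 was at 4.71, 3.93 and 4.44 FPKM against 5.48, 5.82 and 5.92, with no overlap (-0.33, SE 0.08, adjusted p = 0.045). Both stayed above their 24 h values in every library. Of 22 other settings or left-out libraries, 13 ended the call of Kif3a and 17 that of Tctn1, with the sign kept in all. The 2 calls are 5.26% of members, against 3.88% of all genes called (0.512% higher and 3.37% lower), and the members' median was -0.23 against -0.05 for all genes. Without the library that stood apart the values were -0.26 (adjusted p = 2.2e-04) for Kif3a and -0.27 (adjusted p = 0.011) for Tctn1, and the members' median was -0.07. Kif3a then was the 1 member whose CT-179 effect differed between 144 h and 24 h (-0.21, SE 0.04, adjusted p = 0.026), against 2.66% of all genes called, 1.2% higher and 1.46% lower. With all libraries no member passed that test of the difference, and no gene of 12510 did, with 574 genes and 1 member at an unadjusted p under 0.05. That member was Kif3a at -0.32 (adjusted p = 0.69), followed by Tmem67 at -0.28 and Bbs2 at -0.17.

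Tmem67, named by that rule, was at 3.07, 2.06 and 2.84 FPKM under CT-179 at 144 h against 3.27, 3.52 and 3.48 in vehicle, and at 24 h at 2.24, 2.22 and 2.17 against 2.08, 2.29 and 2.32. Bbs2 was at 9.57, 7.47 and 8.55 FPKM against 9.77, 10.2 and 10.2 at 144 h, and at 4.88, 5.16 and 4.61 against 5.14, 4.93 and 5.10 at 24 h. In both genes the 144 h groups did not overlap, and in both the lowest value was replicate 2.

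**Figure D3:**
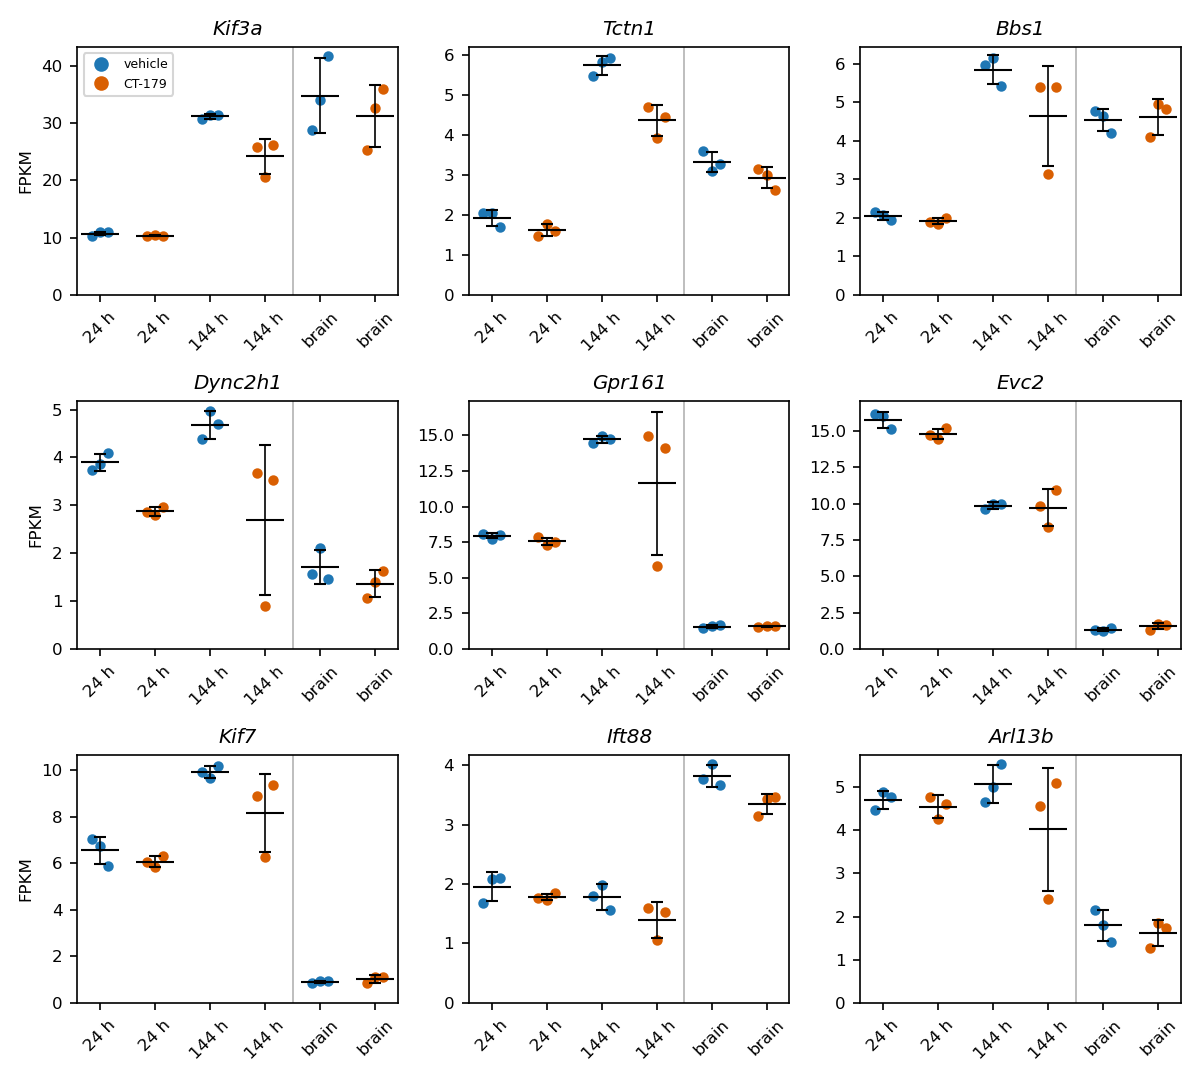
FPKM of 9 cilium genes in every library of the 6 groups, with the group mean and SD (black). Blue points are vehicle and orange points CT-179; cells are left of the grey line and brain right of it, on separately normalized tables. In 144 h CT-179 cells 1 point, replicate 2, lies far below the others for Gpr161, Dync2h1 and Arl13b, and the Kif3a and Tctn1 points all lie below vehicle.

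For several members the 144 h value turned on 1 library. Gpr161 was at 15.0, 5.84 and 14.1 FPKM under CT-179 against 14.5, 15.0 and 14.7 in vehicle, so that only replicate 2 lay far below (-0.41 with it and -0.02 without it). Arl13b was at 4.55, 2.40 and 5.11 FPKM against 4.66, 5.01 and 5.53 (-0.32 and -0.06). Evc was at 11.1, 6.16 and 11.2 FPKM against 10.6, 10.9 and 11, and its sign turned when replicate 2 was left out (-0.21 and 0.04). Evc2, at 9.85, 8.41 and 10.9 FPKM against 9.61, 10 and 10, also turned (-0.02 and 0.07). None of these 4 passed the test either way.

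Kif7 was at 8.87, 6.24 and 9.36 FPKM under CT-179 against 9.93, 9.66 and 10.2 in vehicle, lower in all 3 libraries without passing (-0.27, adjusted p = 0.17, and -0.11 without replicate 2). Ift88 was at 1.6, 1.05 and 1.53 FPKM against 1.81, 1.99 and 1.56, with overlap (-0.22, adjusted p = 0.17, and -0.12 without replicate 2). Dync2h1 had the largest difference, at 3.68, 0.887 and 3.52 FPKM against 4.38, 4.96 and 4.71. It did not pass with all libraries (-0.73, SE 0.27, adjusted p = 0.15) and passed without replicate 2 (-0.30, SE 0.05, adjusted p = 0.0018).

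Without replicate 2 at 144 h, 8 members passed and 28.7% of all genes (11.8% higher and 16.9% lower). The 6 lower were Kif3a, Tctn1, Dync2h1, Rpgrip1l (-0.19), Cep290 (-0.16) and Tmem67 (-0.16). They include 4 of the 5 appendage and transition zone genes. All 4, with 7744 (Tmem67) to 14688 (Rpgrip1l) bases of exon, are among the 12 longest members. In this setting the members' CT-179 effects still ran with length (Spearman's rho -0.37), so role and length are not told apart here. The 2 higher were Ift43 (0.21) and Ift27 (0.13). Dync2h1 and Cep290 were lower, and Ift27 higher, at both times in this setting. With all libraries, 15 members were lower and 5 higher without overlap of the groups, against 27% and 19.1% of all genes.

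**Figure D4:**
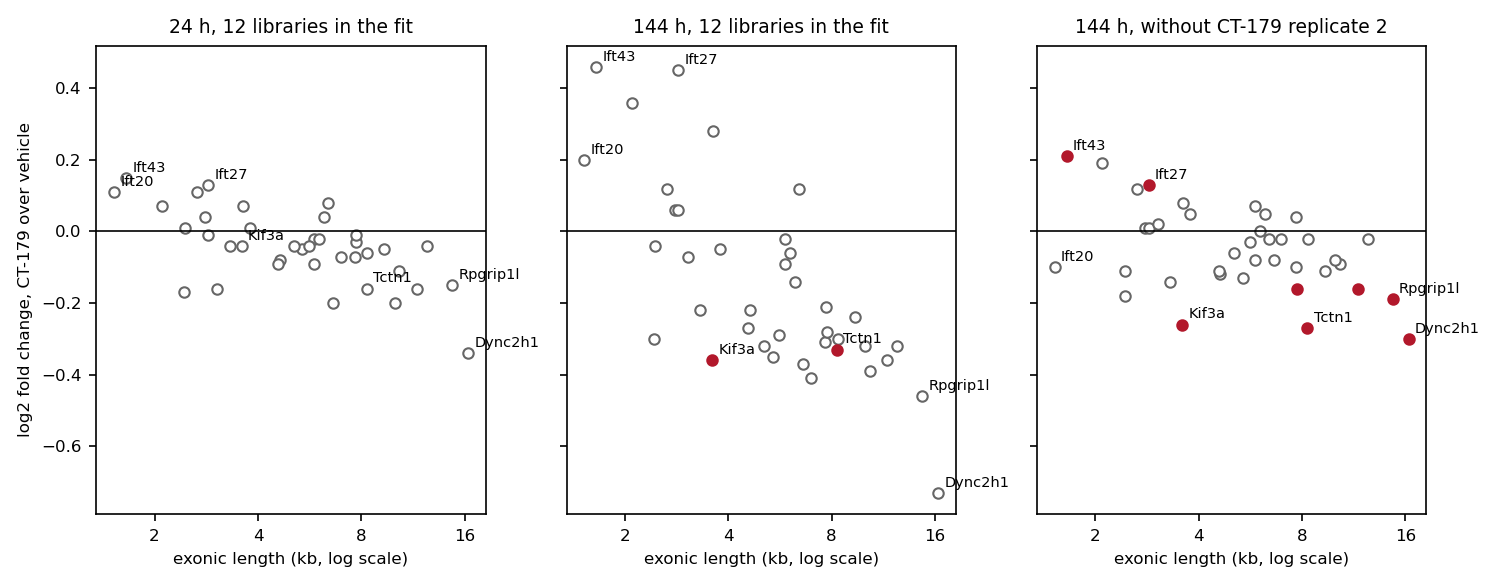
Log2 fold change of CT-179 over vehicle against exonic length on a log scale for the 38 cilium genes, at 24 h, at 144 h, and at 144 h without CT-179 replicate 2. Filled red points passed an adjusted p of 0.05. Short genes such as Ift43 and Ift27 lie high and long genes such as Dync2h1 low in each panel, with a narrower spread in the last.

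CT-179 effects ran with gene length among the members as they did over all genes. At 24 h the rank correlation with exonic length was -0.57 over 38 members and -0.41 over all genes. At 144 h it was -0.72 and -0.58, and without replicate 2 it was -0.37 and -0.34. The 12 shortest members (up to 3586 bases) had a median of 0.06 at 144 h and the 12 longest (from 7674 bases) one of -0.32. Without replicate 2 these medians were 0.01 and -0.10. Culture time in vehicle showed little of this, with 0.12 and 0.07. Genes of 1 library set are not independent. Of the members called at 144 h, Kif3a has 3586 bases and is among the shortest 12, and Tctn1 has 8295 and is among the longest 12. When a smooth trend on length was removed from every library, 1 member passed at 144 h: Kif3a was at -0.39 (adjusted p = 0.032) and Tctn1 at -0.09 (adjusted p = 0.5). With that correction and without replicate 2, 5 passed, all lower, with Kif3a at -0.26 and Tctn1 at -0.21 (adjusted p = 0.044).

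Among related genes at 144 h, Gli1 was lower under CT-179, at 12.3, 9.38 and 11.5 FPKM against 19.4, 20.6 and 21.1 in vehicle (-0.83, SE 0.09, adjusted p = 0.0016, and -0.73 without replicate 2). With all libraries it was the 1 of 8 hedgehog pathway genes that passed. Without replicate 2, Ptch1 and Gli2 were also lower and Smo was higher (0.13, adjusted p = 0.0028). Ptch1 was at -0.68 with all libraries (adjusted p = 0.16) and -0.23 without replicate 2 (adjusted p = 0.017). Also lower in both settings were Tub (-0.80 with all libraries and -0.56 without replicate 2), the transition zone gene Anks6 (-0.42 and -0.38), and the centriolar genes Ccp110 (-0.74 and -0.54), Dzip1l (-0.55 and -0.44) and Odf2 (-0.44 and -0.32). With all libraries, 0 of the 14 other transport genes, 8 disassembly genes and 8 ciliary transcription factors passed. Without replicate 2 the transport genes Wdr60 and Ttc26 were lower, Plk1 was lower and Nedd9 higher among disassembly genes, and the factors Rfx3, Rfx5 and Rfx7 were lower. Over 17 basal body genes these are 3 calls, and 6 without replicate 2, with no gene of that list higher in either setting. The summed cycling markers were 27.0 to 29.6 FPKM under CT-179 and 30.4 to 33.1 in vehicle, and the neuronal markers 34.6 FPKM in replicate 2, 76.2 to 78.3 in the other CT-179 libraries and 80.6 to 85.1 in vehicle. Of the neuronal markers Dcx was lower (-0.95, adjusted p = 0.0033, and -0.78 without replicate 2). Of the astrocyte markers Gja1 was lower (-0.48, adjusted p = 0.0099) and Aldoc higher (0.31, adjusted p = 0.033), and both also passed without replicate 2. Their part in the cilium calls was not tested.

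In whole brain at postnatal day 15 no cilium gene passed the test of CT-179 over vehicle. Log2 fold changes ran from -0.20 (Dync2h1) to 0.21 (Ift22), with a median of 0.01 against 0.02 for all genes. No gene of 13422 passed (0%), with 490 genes and 2 members at an unadjusted p under 0.05 in limma. Ift22, an IFT-B GTPase, was at 22.3, 19.8 and 20.1 FPKM under CT-179 against 18.5, 16.2 and 18.7 in vehicle, without overlap (0.21, SE 0.09, adjusted p = 0.97). Ift172 was at 5.76, 6.25 and 6.38 FPKM against 6.86, 7.12 and 7.2, also without overlap (-0.18, SE 0.07, adjusted p = 0.97). Ift88 was at 3.15, 3.44 and 3.46 FPKM against 3.77, 4.03 and 3.66 (-0.15, SE 0.08, adjusted p = 0.97).

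**Figure D5:**
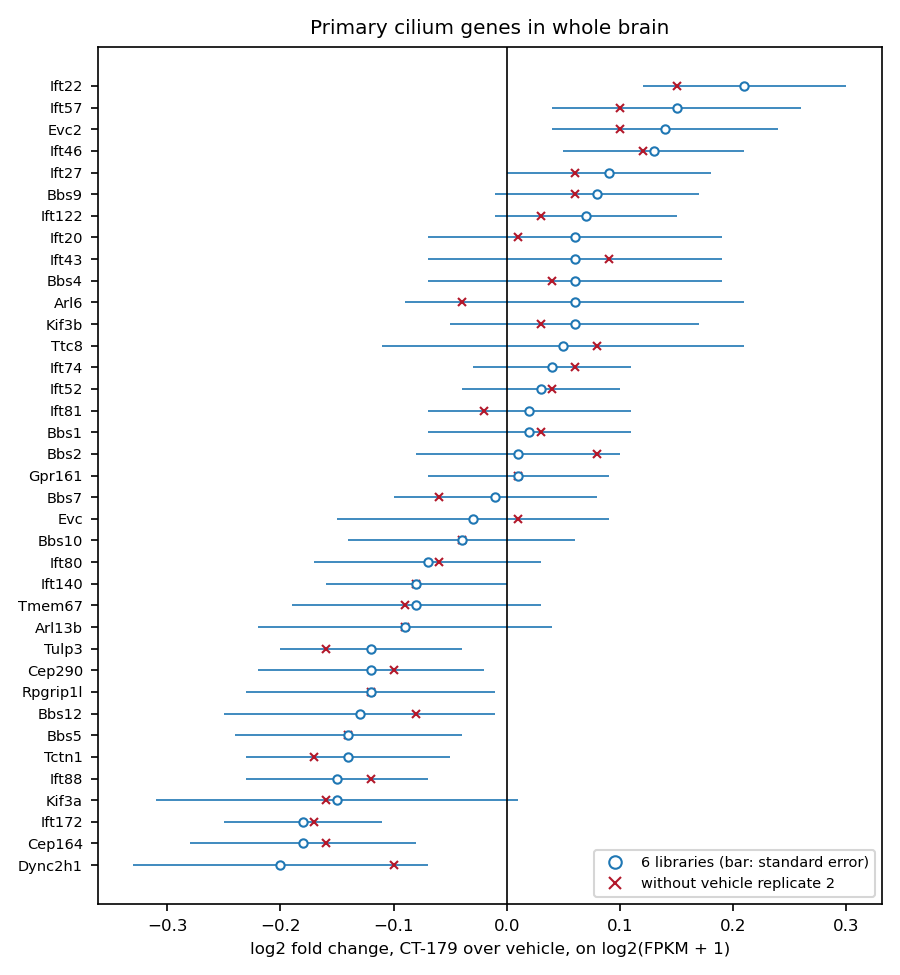
Log2 fold change of CT-179 over vehicle in whole brain for the 37 tested cilium genes, with standard errors, and the value without vehicle replicate 2 (red crosses). All values lie between -0.20 and 0.21, and none passed.

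The members that fell in cells at 144 h gave no call in brain. Kif3a was at 25.3, 32.6 and 36.0 FPKM under CT-179 against 28.8, 34.0 and 41.8 (-0.15, SE 0.16, adjusted p = 0.97). Tctn1 was at 3.16, 3.0 and 2.63 FPKM against 3.59, 3.09 and 3.27 (-0.14, SE 0.09, adjusted p = 0.97). Both pairs of groups overlapped. The authors' deposited table, made without vehicle replicate 2, also gave no member at a false discovery rate under 0.05 and 17 such genes in all (0.0873%). Its smallest member p was 0.14 for Ift172, with a log2 ratio of vehicle over CT-179 of 0.20.

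Of the members tied to hedgehog signalling, Tulp3 was at 4.45 to 5.61 FPKM over the 6 brain libraries. Gpr161 was at 1.45 to 1.67 FPKM in vehicle brains and 1.56 to 1.59 under CT-179. Kif7 was at 0.837 to 0.931 FPKM in vehicle and 0.843 to 1.12 under CT-179, under the filter. Evc (1.26 to 1.94 FPKM in vehicle, 1.40 to 1.76 under CT-179), Evc2 (1.20 to 1.43 and 1.31 to 1.69) and Arl13b (1.42 to 2.15 and 1.27 to 1.85) were in the same range. The highest members in brain were Ift20, with a mean of 58.4 FPKM in vehicle, Kif3a with 34.8, Ift27 with 25.1 and Ift22 with 17.8. In vehicle cells at 24 h the highest were Tulp3 with 25.7, Ift20 with 23.9, Ift27 with 19.3 and Evc2 with 15.8. Brain and cell tables were normalized separately and no test was made between them. The summed level of all 38 was 299 to 324 FPKM in vehicle brains, 284 to 294 in vehicle cells at 24 h and 347 to 356 at 144 h. Choroid plexus markers, from another ciliated epithelium, summed to 2394 FPKM in CT-179 replicate 1 and 1046 to 1383 in the other brains, and multiciliated ependymal markers to 40.8 in that library and 28.5 to 35.1 in the others. Their part in the brain values was not tested.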

How the data were processed

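RNA was purified on RNeasy columns, made into libraries with a SMARTer mRNA kit and sequenced as paired reads of 100 bases, per the labels' protocols. The submitters' processing notes name mm10, R 3.6 with edgeR 3.28.1, HTSeq 0.6.1p2, STAR 2.6.0c and Trim Galore 0.5.0; settings, annotation and counting strand are not given in the sources used here. Expression was deposited as FPKM for each gene in each library. The brain table adds, per the file headers, the authors' own comparison: log2 fold change, log2 mean abundance, the likelihood ratio as a score, the p-value and the false discovery rate. This log2 fold change matched vehicle replicates 1 and 3 over the CT-179 libraries (r = 0.9999) better than all libraries (r = 0.6986), so vehicle replicate 2 was left out of it.

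Genes reaching 1 FPKM in 3 or more libraries were tested on log2(FPKM + 1), which understates the change of low genes, with limma 3.58.1 in R 4.3.3 (2-sided tests, variance moderated along a trend on mean level), with Benjamini-Hochberg adjustment over all genes tested and a threshold of 0.05. Cells (12 libraries, 12510 genes) and brains (6 libraries, 13422 genes) were fitted apart, with a method checked on simulated data. In that check the false share among called genes exceeded the threshold in cells and not in brain. The 6 contrasts came from these fits. Members and gene lists were chosen with earlier results of these data known. Values in every library were given for 7 landmark members (Ift88, Kif3a, Kif7, Arl13b, Gpr161, Evc, Evc2), for up to 6 called members with the smallest adjusted p in each contrast or, with none called, the 3 with the smallest p, and for up to 3 called genes of each of 7 other lists a fold change could be given. Low values times exonic length (GENCODE, holding 99.5% and 99.8% of gene identifiers) were whole multiples of 1 read, within 0.1 read up to 20 reads, for 91.5% to 92.9% of values in cells and 97.8% to 99.1% in brain. Since the implied reads exceeded the FPKM scale 1.23 to 1.40 times for a reason that is not known, no count model was run. Replicates of a group differed by more than sampling noise. Promoter sequences are from RefSeq (GRCm38.p6). Alternatives were other pseudocounts, filters, scalings, weights, a length correction, a replicate block, separate fits and leaving out each library.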

Additional observations from a re-analysis of the deposited data

How the results depend on the processing

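Counts of called members moved as follows. The share of all genes called moved too, at 24 h from 0.264% to 22.2% when CT-179 144 h replicate 2 was left out. It is not given for each setting, so these counts show dependence on the processing and are not a result about the members. For CT-179 at 24 h (0 with all libraries) array weights gave 9, leaving out CT-179 144 h replicate 2 gave 7, 8 with median-of-ratios scaling and 4 with the length correction, and a separate fit of 24 h gave 4; leaving out libraries singly gave 0 to 7. At 144 h (2) a pseudocount of 0.1, no filter and the length correction gave 1 each, TPM scaling, median-of-ratios scaling and a separate fit gave 0, and array weights gave 19 (5 higher, 14 lower), though their estimation stopped before convergence; without replicate 2 the count was 7 with median-of-ratios scaling and 5 with the length correction, and single libraries left out gave 0 to 8. For the difference between times (0), array weights gave 3, leaving out replicate 2 gave 1, and 2 with either further correction. For time under CT-179 (21), array weights gave 34 and leaving out replicate 2 with median-of-ratios scaling 32; single libraries left out gave 18 to 31. Time in vehicle gave 19 to 34 (20 to 32 with single libraries left out) and brain 0 throughout.

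At 144 h the sign of the CT-179 effect turned for Arl13b with array weights (0.00), for Gpr161 without replicate 2 and with median-of-ratios scaling (0.03) or the length correction (0.03), for Evc with the length correction (0.01), array weights (0.05) and without replicate 2 alone (0.04) or with those corrections (0.09 and 0.10), and for Evc2 with median-of-ratios scaling (0.04), the length correction (0.11), array weights (0.12) and without replicate 2 alone (0.07) or with those corrections (0.12 and 0.11). Leaving out other single libraries gave values down to -0.35 for Evc and -0.11 for Evc2. The cause was not tested. With TPM scaling the all-gene median at 144 h went from -0.05 to -0.23, in the difference between times from -0.03 to -0.16, and with time in vehicle from 0.01 to 0.11.

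Replicate numbers did not pair the libraries: same-numbered deviations correlated from -0.39 to 0.24. With the replicate block, 0 members were called at 24 h, 0 at 144 h, 22 for time in vehicle, 21 under CT-179 and 0 in brain. The shares of all genes called with the block are not given here. In simulated data for CT-179 at 24 h (12510 genes) 45% of changes of 0.5 on the log2 scale were recovered. In brain (13422 genes) 20% were, so smaller changes may be missed. Of the genes called there, 10.9% were false at 24 h and 4.76% in brain. With changes of 1.0 these shares were 6.82% and 4.89%. In the simulated contrast of cells at 24 h the false share was thus above the threshold set for the adjusted p. The simulation gave each gene the same spread in every library and changed only the 24 h group. It held no library that stood apart, so it does not measure the false share at 144 h. How sure the real cell calls close to the threshold are, such as Kif3a and Tctn1 at 144 h, was not tested. They may be less sure than their adjusted p implies.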

Other observations

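The spread of the cilium genes between libraries was set beside that of all tested genes. Their median coefficient of variation within a group was 4.96% in vehicle cells at 24 h, 3.32% under CT-179 at 24 h and 3.02% in vehicle at 144 h, against 4.68%, 3.39% and 3.3% for all tested genes. Under CT-179 at 144 h it was 23.6% against 23.0%, and 3.73% against 2.78% without replicate 2. In brain it was 8.71% in vehicle and 10.8% under CT-179.

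Foxj1, the regulator of motile cilia, was at 7.80, 7.49 and 7.63 FPKM in vehicle at 144 h and 7.58, 8.39 and 8.0 under CT-179, with overlap (0.06, adjusted p = 0.58 in limma). Replicate 2, in which Gpr161, Kif3b and Ift172 (6962, 5635 and 6617 bases of exon) were low, was not low in Foxj1. The members' ratios in that library followed exonic length, and the short members Ift20, Ift27 and Ift43 were high in it. A difference between genes of motile and primary cilia was not tested. Ccdc39, an assembly factor of motile axonemes, was lower under CT-179 (-0.55, adjusted p = 0.048, and -0.37 without replicate 2).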
